A study of Mus musculus with 9 samples.

Results

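Potassium channel genes were followed in the infarcted left ventricle of the mouse, using every protein-coding gene of the GENCODE annotation of build GRCm38 whose symbol starts with Kcn. The annotation held 94 such genes and all 94 were present among the 38293 genes of the count table. After a filter on low counts 43 of them could be tested, among 14124 tested genes in all. The 94 genes cover the pore-forming subunits of the voltage-gated, inward rectifier, two-pore and calcium- or sodium-activated channels, and the accessory subunits of the Kcnab, Kcne and Kcnip families that join them, with the regulator gene Kcnrg. The genes were sorted into 7 lists by these roles.

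RNA was sequenced from left ventricles of 3 mice 1 day after ischemia and reperfusion (I/R; mice 4, 5 and 6) and 3 mice 14 days after I/R, and of 3 sham-operated mice (mice 1, 2 and 3). The tissue label names the infarcted region for every library, sham included. All were male C57BL/6 mice of 8 weeks, and the labels name no genetic change. For I/R the left anterior descending artery was tied off for 1 hour and then reopened. The count columns of the 14-day group carry 1 shared name, so the letters A, B and C stand for those libraries and carry no order. The labels do not give the time at which sham tissue was taken, so I/R and time after surgery cannot be told apart in the comparisons with sham.

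Potassium channels let potassium leave the cell and so repolarize the cardiac action potential and hold the resting potential. In the mouse ventricle, early repolarization is carried mainly by the fast transient outward current, whose pore is built from Kcnd2 and Kcnd3 subunits together with the calcium-binding accessory subunit Kcnip2. Kcna5 subunits carry a delayed rectifier current, Kcnj2 and Kcnj12 the inward rectifier current that sets the resting potential, and Kcnj11 the current through ATP-sensitive channels, which open when energy stores fall. Other Kcn genes belong to nerve, smooth muscle, connective tissue or blood-borne cells, so a piece of ventricle holds channel transcripts of many cell types.

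Library totals ran from 20215781 to 36816818 counts, of which 59.1% ± 6.19 (SD, n = 3) came from mitochondrial genes, their ribosomal RNA included, in the 1-day mice, 67.4% ± 2.10 in the 14-day mice and 67.7% ± 3.599 in the sham mice. Levels are given as CPM, a gene's counts relative to the library size after trimmed-mean scaling. Differences are log2 fold changes ± SE from edgeR's quasi-likelihood test, and a gene was called where its Benjamini-Hochberg adjusted p, over all tested genes, was under 0.05. Markers of cardiomyocytes stood lower at 1 day (10 of 12 genes, median log2 fold change -1.18), with summed levels of 35828 to 54597 CPM in the 1-day mice, 53284 to 69094 CPM in the 14-day mice and 68916 to 75870 CPM in the sham mice; none of the 12 was at 0, and Ttn, the most abundant of them, and Actc1 were not called. Neutrophil markers were higher at 1 day (6 of 6 tested of 7), summing to 47.7 to 130 CPM in the 1-day mice against 1.67 to 4.54 CPM in the sham mice. Fibroblast markers were higher at 14 days (7 of 8), summing to 2010 to 4972 CPM in the 14-day mice against 544 to 990 CPM in the sham mice. The part of these shifts in the channel results was not tested, and in bulk tissue fewer cells of a type and less RNA per cell cannot be told apart.

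Per kilobase of exonic sequence, which allows genes to be set side by side, the leading channel transcript of the sham ventricle was Kcnk3, which encodes a two-pore leak channel. Kcnk3 averaged 9.95 CPM per kb in the 1-day mice, 17.2 CPM per kb in the 14-day mice and 24.4 CPM per kb in the sham mice. Kcnip2 came next in sham tissue, with 2.84 CPM per kb at 1 day, 15.5 CPM per kb at 14 days and 19.0 CPM per kb in the sham mice. Kcng2, a silent subunit that forms no channel by itself and alters the gating of the channels it joins, followed, with 9.51 CPM per kb at 1 day, 5.97 CPM per kb at 14 days and 12.1 CPM per kb in sham tissue. Inward rectifier genes came after these: Kcnj2 held 7.09% ± 0.979 (SD, n = 3) of the summed CPM per kb of the 94 genes in the sham mice, Kcnj3 6.47% ± 0.809, Kcnj5 5.29% ± 0.220 and Kcnj8 5.14% ± 0.204. Kcnj5 stood slightly above Kcnj8 in each sham mouse, and Kcnj2 and Kcnj3 did not keep the same order in all of them. Differences between these genes were not tested.

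The order within the family was not the same 1 day after I/R. Kcnip2 made up 3.61, 2.54 and 6.30% of the summed CPM per kb in mice 4, 5 and 6, against 15.7, 15.2 and 13.5% in the sham mice, and was seventh by its mean share at 1 day. Kcng2 made up 18.3, 18.4 and 10.7% in the 1-day mice against 10.1, 9.26 and 9.02% in the sham mice. The 2 groups did not overlap for either gene, and mouse 6 was the 1-day mouse nearest the sham mice in both. At 14 days Kcnk3 and Kcnip2 again led, with 17.4% ± 0.753 and 15.6% ± 1.29 of the sum.

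At 1 day after I/R, 22 of the 43 tested channel genes were lower than in sham tissue and 7 were higher. The genes that fell included those of the fast transient outward current (Kcnip2, Kcnd2, Kcnd3), of the inward rectifier current (Kcnj2, Kcnj12), of ATP-sensitive channels (Kcnj11, Kcnj8) and of leak channels (Kcnk3, Kcnk2). The genes that rose were Kcnn4, Kcnq5, Kcnab2, Kcne4, Kcnk13, Kcnd1 and Kcna4. Kcnip2 fell to 14.7% of its sham level by the fit, whereas Kcnn4, a calcium-activated channel gene of blood-borne and other non-excitable cells, was at 10.2 times its sham level by the fit.

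In that comparison 67.4% of the tested channel genes were called, against 54.2% of all tested genes. The share that was lower was 51.2% of channel genes, against 24.8% of all genes, and the share that was higher was 16.3%, against 29.4% of all genes. The median log2 fold change was -0.60 over the 43 genes, against 0.04 over all tested genes. Scaling by the total count alone raised the median of all genes to 0.53, and then 12 channel genes were lower and 10 higher. The calls that ended under that scaling included those of Kcnd3 (log2 fold change -0.31, adjusted p = 0.190), Kcnj12 (-0.30, 0.238), Kcna2 (-0.56, 0.254), Kcnk2 (-0.44, 0.359), Kcnab1 (-0.40, 0.405), Kcnj5 (-0.09, 0.728), Kcnt2 (-0.08, 0.783) and Kcnj8 (-0.0093, 0.968). Summed over all 94 genes, channel transcripts came to 225, 208 and 345 CPM in mice 4, 5 and 6 at 1 day, to 488, 408 and 347 CPM in libraries A, B and C at 14 days, and to 526, 550 and 531 CPM in sham mice 1, 2 and 3. Every library with I/R lay below the sham mice in this sum, the 1-day group overlapped none of the other libraries, and mouse 6 lay close to library C.

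**Figure D1:**
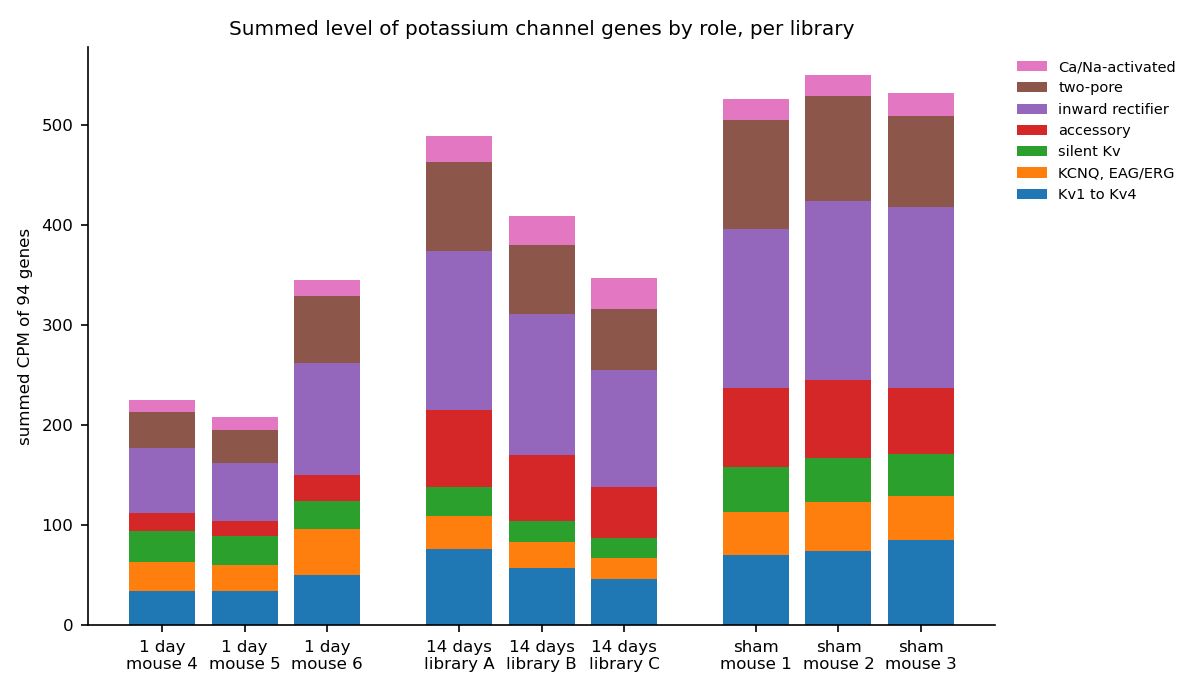
Summed level in CPM (vertical axis) of the 94 potassium channel genes in each of the 9 libraries, stacked by the 7 role lists, with the 1-day libraries on the left, then the 14-day libraries, then the sham libraries. The 1-day bars reach 208 to 345 CPM and the sham bars 526 to 550 CPM, and the inward rectifier part is the tallest in mouse 6 among the 1-day mice.

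The genes of the fast transient outward channel fell together at 1 day. Kcnip2 (chr19:45791839-45816061) had 7.06, 4.57 and 17.97 CPM in mice 4, 5 and 6 at 1 day, 66.0, 55.3 and 40.1 CPM in libraries A, B and C at 14 days, and 69.6, 69.7 and 58.9 CPM in sham mice 1, 2 and 3. All 1-day mice lay far below every other library, mouse 6 was the highest of them, and the log2 fold change at 1 day was -2.77 ± 0.43 (adjusted p = 0.000736). Kcnd2 (chr6:21215503-21729805), the pore subunit, had 2.56, 4.81 and 9.45 CPM at 1 day, 26.5, 19.1 and 14.3 CPM at 14 days and 21.2, 25.6 and 38.0 CPM in the sham mice. Its log2 fold change at 1 day was -2.38 ± 0.44 (adjusted p = 0.00187), again with no overlap with sham and with mouse 6 nearest to it. Kcnd3, the other ventricular pore subunit of this current, fell less, to a mean of 7.83 CPM at 1 day against 13.2 CPM in sham tissue, a log2 fold change of -0.77 ± 0.16 (adjusted p = 0.00187). Kcnd1, another pore subunit of the family, was higher at 1 day, at a low level of 0.695 ± 0.263 CPM against 0.229 ± 0.0558 CPM in sham mice (SD, n = 3 each), with a log2 fold change of 1.60 ± 0.49 (adjusted p = 0.0161). Too few libraries outside the 1-day group reached the filter on low counts. Kcnd1 was thus tested through its 1-day counts (34, 23 and 9 in mice 4, 5 and 6), the group in which it is high.

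The bases just before the starts of genes that stood at the ends of these comparisons are shown so that their promoters can be read against each other. They come from RefSeq on build GRCm38.p6, are written 5′ to 3′ along the gene's own strand, and end 1 base before the RefSeq start of transcription. For Kcnd2 and Kcnip2 that start differs from the start in the GENCODE positions given above. Kcnip2 and Kcnd2 were among the genes that fell most at 1 day, Kcnn4 rose most at 1 day, and Kcnj15 rose at 14 days. Capitals mark matches to any of 6 motifs searched on both strands, namely the TATA box TATAAA, the CCAAT box, the GC box GGGCGG, the E-box CACGTG, the MEF2 site of muscle genes and the nuclear receptor half-site AGGTCA. The windows lie at chr19:45816064-45816313 (minus strand), chr6:21215096-21215345 (plus strand), chr7:24370013-24370262 (plus strand) and chr16:95257308-95257557 (plus strand).
Kcnip2: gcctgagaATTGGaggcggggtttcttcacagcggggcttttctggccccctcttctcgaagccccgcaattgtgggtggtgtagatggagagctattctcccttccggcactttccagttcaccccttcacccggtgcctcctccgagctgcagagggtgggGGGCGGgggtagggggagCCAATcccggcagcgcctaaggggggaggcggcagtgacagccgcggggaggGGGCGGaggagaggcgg
Kcnd2: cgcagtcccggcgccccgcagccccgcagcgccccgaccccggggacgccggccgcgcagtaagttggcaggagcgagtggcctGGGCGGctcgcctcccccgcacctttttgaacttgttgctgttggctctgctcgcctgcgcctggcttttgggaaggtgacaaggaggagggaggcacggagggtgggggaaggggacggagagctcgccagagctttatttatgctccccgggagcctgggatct
Kcnn4: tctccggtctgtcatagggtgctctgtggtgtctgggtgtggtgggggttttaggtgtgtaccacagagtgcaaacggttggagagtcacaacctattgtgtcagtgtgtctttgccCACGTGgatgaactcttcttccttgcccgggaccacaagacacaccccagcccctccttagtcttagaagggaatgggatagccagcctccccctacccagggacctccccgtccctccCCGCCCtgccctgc
Kcnj15: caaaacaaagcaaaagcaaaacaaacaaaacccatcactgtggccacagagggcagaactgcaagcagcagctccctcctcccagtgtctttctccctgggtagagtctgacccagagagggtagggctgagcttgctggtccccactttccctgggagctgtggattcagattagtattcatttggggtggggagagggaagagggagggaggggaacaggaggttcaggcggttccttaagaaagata

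The Kcnip2 window held a pair of CCAAT boxes, at positions -242 and -69 from the RefSeq gene start, and a pair of GC boxes, at -87 and -17. Its G+C content was 66.8%, close to the 68.8% of the Kcnd2 window, which held 1 GC box. The Kcnn4 window (58.8% G+C) held 1 GC box on the other strand and 1 E-box, and the Kcnj15 window (53.2% G+C) held none of the 6 motifs. A CCAAT box stood in 6 of 20 windows of genes lower at 1 day, in 2 of 9 windows of genes higher at 1 day, and in 33.8% of all 32851 windows of this length. A GC box stood in 7 of 20 and 3 of 9 of these windows, against 32.7% of all windows. The E-box stood in 3 of 20 and 2 of 9, against 6.02% of all windows. In the 15 windows of genes not called at 1 day, a CCAAT box stood in 6, a GC box in 5 and the E-box in 0. The 20 and 9 windows came from 14 and 6 genes, so several starts of 1 gene were counted apart, and no difference in these shares was tested. None of the 20 or 9 windows held a TATA box, the MEF2 site or the half-site, which stood in 12.4%, 3.20% and 14.0% of all windows. Windows were found for 30 of the 43 tested genes, some with more than 1 start, and a match describes letters and not binding.

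Of the voltage-gated pore genes of the Shaker, Shab, Shaw and Shal families, Kcnd1, Kcnd2 and Kcnd3 included, 13 of 17 were tested. At 1 day 5 fell and 2 rose, which was 53.8% of those tested and near the 54.2% of all tested genes. Kcna1 (chr6:126640397-126646384), a delayed rectifier subunit best known from axons, had 0.724, 0.913 and 1.16 CPM at 1 day, 3.84, 3.46 and 1.92 CPM at 14 days and 2.76, 3.34 and 3.39 CPM in sham mice. It was lower at 1 day in each mouse, with a log2 fold change of -1.80 ± 0.28 (adjusted p = 0.000380). Kcna7 and Kcna2 fell with log2 fold changes of -1.36 ± 0.24 and -1.06 ± 0.38 (adjusted p = 0.000737 and 0.0320). Kcna4 (chr2:107290639-107298502), which carries the slow transient outward current, went the other way: it had 5.79, 4.73 and 4.26 CPM at 1 day, 2.67, 2.35 and 2.003 CPM at 14 days and 2.60, 1.95 and 1.85 CPM in sham mice. All 1-day mice stood above every other library, and the log2 fold change was 1.21 ± 0.19 (adjusted p = 0.000366).

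Kcna5, the pore of an ultrarapid delayed rectifier current, was not called. It had 4.93, 4.33 and 4.93 CPM at 1 day, 12.9, 5.10 and 5.03 CPM at 14 days and 9.21, 5.63 and 6.77 CPM in sham mice, with a log2 fold change at 1 day of -0.60 ± 0.36 (95% interval -1.42 to 0.22, adjusted p = 0.190). The 1-day mice lay below the sham mice without overlap, and library A stood apart from B and C. Without library A Kcna5 was called (log2 fold change -0.61, adjusted p = 0.00997).

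Of the 10 silent Kv subunits the 2 that could be tested both fell at 1 day, where 24.8% of all tested genes were lower. Kcnv2 (chr19:27322588-27337179), which joins other Kv subunits and is best known from photoreceptors, had 0.136, 0.238 and 1.66 CPM at 1 day, 7.06, 3.78 and 3.23 CPM at 14 days and 6.45, 7.65 and 7.48 CPM in sham mice. With a log2 fold change of -3.64 ± 0.64 (adjusted p = 0.00147) it was the channel gene with the largest fitted fall, and mouse 6 had several times the level of mice 4 and 5. Kcng2, on chromosome 18, had 30.7, 28.4 and 26.2 CPM at 1 day, 21.2, 16.6 and 15.8 CPM at 14 days and 38.4, 36.5 and 33.9 CPM in sham mice. The 3 groups did not overlap and the 14-day libraries were the lowest. The log2 fold change at 1 day was -0.35 ± 0.12 (adjusted p = 0.0226); its sign changed to 0.14 (adjusted p = 0.551) when libraries were scaled by total count alone.

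The KCNQ and EAG-type subunits, 4 of 13 of which were tested, showed 1 rise and 1 fall at 1 day. These calls made up 50.0% of those tested, near the 54.2% of all tested genes. Kcnq1 (chr7:143106362-143427042), the pore of the slow delayed rectifier, had 16.8, 14.8 and 22.1 CPM at 1 day, 15.0, 14.1 and 10.5 CPM at 14 days and 19.2, 21.5 and 17.4 CPM in sham mice, and at 1 day overlapped sham (log2 fold change -0.12 ± 0.16, 95% interval -0.48 to 0.24, adjusted p = 0.551). Kcnh2 (chr5:24319589-24351604), the pore of the rapid delayed rectifier, had 9.07, 8.26 and 20.7 CPM at 1 day, 16.3, 10.4 and 8.59 CPM at 14 days and 21.5, 24.2 and 23.7 CPM in sham mice. Mice 4 and 5 were far below sham and mouse 6 was near it, and the gene missed the threshold at 1 day (log2 fold change -0.89 ± 0.35, adjusted p = 0.0553). Without mouse 6 it was called, at -1.41 (adjusted p = 0.000822). Kcnq5 (chr1:21398403-21961942), a subunit of the M-type current of neurons, had 1.52, 0.993 and 1.08 CPM at 1 day, 0.312, 0.235 and 0.368 CPM at 14 days and 0.209, 0.371 and 0.256 CPM in sham mice, so the 1-day mice stood above all others (log2 fold change 2.07 ± 0.33, adjusted p = 0.000434).

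Among the accessory subunits, of which 6 of 13 were tested, 3 fell and 2 rose at 1 day, 83.3% against 54.2% of all tested genes. Kcne1 (chr16:92345982-92359468), the partner of Kcnq1 in the slow delayed rectifier, had 1.11, 0.913 and 0.941 CPM at 1 day, 4.19, 3.87 and 2.82 CPM at 14 days and 5.53, 4.72 and 3.13 CPM in sham mice. The 1-day values were close together, including mouse 6, and the log2 fold change was -2.17 ± 0.24 (adjusted p = 6.10e-05). Kcne4 (chr1:78816758-78820028), a related single-pass subunit that inhibits Kcnq1 channels, had 4.32, 4.73 and 2.06 CPM at 1 day, 3.32, 4.02 and 4.82 CPM at 14 days and 1.13, 0.876 and 1.21 CPM in sham mice. It was higher in every library with I/R than in every sham library, with a log2 fold change at 1 day of 1.83 ± 0.31 (adjusted p = 0.000651). Kcnab2 (chr4:152390742-152477871), a cytoplasmic beta subunit of Shaker-type channels, had 4.14, 3.49 and 3.14 CPM at 1 day, 0.762, 0.909 and 1.19 CPM at 14 days and 0.879, 0.910 and 1.09 CPM in sham mice. The rise was seen at 1 day (log2 fold change 1.93 ± 0.21, adjusted p = 5.95e-05), while its relative Kcnab1 fell at a level under 1 CPM (-0.89 ± 0.31, adjusted p = 0.0289), a call that DESeq2 did not make (adjusted p = 0.0591) and that ended without the filter on low counts (0.0801). Kcnip3, which also acts as a transcriptional repressor, was not called (0.43 ± 0.34, adjusted p = 0.297).

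Of 7 tested inward rectifier genes (of 15), 6 fell at 1 day, where 24.8% of all tested genes were lower. Kcnj2 (chr11:111066164-111076821), the main pore of the ventricular inward rectifier current, had 11.9, 11.9 and 28.8 CPM at 1 day, 42.8, 44.9 and 33.2 CPM at 14 days and 45.0, 47.4 and 56.2 CPM in sham mice. The log2 fold change at 1 day was -1.51 ± 0.32 (adjusted p = 0.00370), with mouse 6 at more than the level of mice 4 and 5 combined. Kcnj12, the second subunit of this current, fell to 6.67 ± 0.905 CPM at 1 day, against 11.3 ± 1.504 CPM in sham mice (log2 fold change -0.77 ± 0.19, adjusted p = 0.00481); it was not called under scaling by total count alone (-0.30, adjusted p = 0.238). Kcnj3 (chr2:55435970-55598145), which with Kcnj5 forms the acetylcholine-activated channel of atrial and nodal cells, had 5.20, 5.92 and 21.2 CPM at 1 day, 38.6, 31.0 and 19.99 CPM at 14 days and 37.0, 47.4 and 45.8 CPM in sham mice. Its log2 fold change was -2.05 ± 0.50 (adjusted p = 0.00827) and that of Kcnj5 was -0.56 ± 0.19 (adjusted p = 0.0293), a call that ended without the filter on low counts (adjusted p = 0.0862) and under scaling by total count alone. The 5 markers of atrial myocytes summed to 375 to 482 CPM in the 1-day mice against 18.1 to 43.6 CPM in the sham mice. Only 2 of the 5 could be tested and only Nppa was called, higher, so this sum does not measure the number of atrial cells. Markers of the conduction system summed to 2.35 to 3.00 CPM in the 1-day mice against 7.62 to 9.07 CPM in the sham mice, with 2 of 3 tested genes lower. The part of these cells in the values of Kcnj3 and Kcnj5 was not tested. Kcnj3 shares 31.1% of its exonic bases with the antisense gene Gm26794, which had at most 0.498 CPM in any library.

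The pores of ATP-sensitive channels were lower at 1 day as well. Kcnj8 (chr6:142564837-142571614), the vascular form, had 11.3, 11 and 13.9 CPM at 1 day, 19.1, 17.5 and 16.0 CPM at 14 days and 16.0, 17.7 and 16.9 CPM in sham mice, a small fall without overlap (log2 fold change -0.48 ± 0.11, adjusted p = 0.00360) that was not seen under scaling by total count alone (-0.0093, adjusted p = 0.968). Kcnj11, the form of heart muscle, averaged 8.18 ± 3.12 CPM at 1 day against 18.9 ± 1.07 CPM in sham mice (log2 fold change -1.22 ± 0.23, adjusted p = 0.00132). Their regulatory subunits, the sulfonylurea receptors, moved the same way: Abcc9 averaged 113 ± 46.1 CPM at 1 day against 326 ± 6.57 CPM in sham mice (log2 fold change -1.53 ± 0.24, adjusted p = 0.000464) and Abcc8, singled out after its values were seen, 8.85 ± 3.15 CPM at 1 day against 17.4 ± 0.814 CPM in sham mice (-0.98 ± 0.22, adjusted p = 0.00395). Kcnj8 and Abcc9 lie 16.2 kb apart on chromosome 6, and Kcnj11 and Abcc8 lie 3.76 kb apart on chromosome 7. Abcc9 also stands on the smooth muscle and pericyte marker list, of whose 10 genes 4 rose and 3 fell. The list, Abcc9 included, summed to 442 to 593 CPM in the 1-day mice against 833 to 867 CPM in the sham mice. The part of these cells in the values of Kcnj8 and Abcc9 was not tested.

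Of the two-pore leak channels, 4 of 14 of which were tested, 2 fell and 1 rose at 1 day, 75.0% against 54.2% of all tested genes. Kcnk3 (chr5:30588170-30625271), an acid-sensitive leak channel, had 29.4, 26.5 and 62.8 CPM at 1 day, 84.9, 64.0 and 56.5 CPM at 14 days and 105, 99.9 and 86.1 CPM in sham mice. Mouse 6 had more than mice 4 and 5 combined, all 1-day mice lay below the sham mice, and the log2 fold change was -1.30 ± 0.30 (adjusted p = 0.00578). Kcnk2, a stretch-sensitive leak channel, fell at a level under 1 CPM (-0.93 ± 0.36, adjusted p = 0.0466). That call ended with limma-voom (adjusted p = 0.0511), with DESeq2 (0.0668), without the filter on low counts (0.0858) and under scaling by total count alone (-0.44, 0.359), and 12.2% of its exonic bases are shared with an antisense gene that is not analysed here. Kcnk13 (chr12:99964499-100062682), a leak channel of microglia among other cells, had 1.70, 1.51 and 0.941 CPM at 1 day, 0.589, 0.586 and 1.23 CPM at 14 days and 0.209, 0.573 and 0.447 CPM in sham mice, with a log2 fold change at 1 day of 1.75 ± 0.41 (adjusted p = 0.00408). Kcnk6 (chr7:29221926-29232515) was not called: it had 3.67, 3.97 and 2.64 CPM at 1 day, 2.53, 2.49 and 2.62 CPM at 14 days and 2.30, 2.76 and 3.64 CPM in sham mice, and the 1-day mice overlapped the sham mice (log2 fold change at 1 day 0.27 ± 0.20, 95% interval -0.16 to 0.70).

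The calcium- and sodium-activated channels, 7 of 12 of which were tested, held 1 gene that rose and 3 that fell at 1 day. These calls made up 57.1% of those tested, near the 54.2% of all tested genes. Kcnn4 (chr7:24370263-24386690), the intermediate-conductance channel of lymphocytes, macrophages and red cells, had 1.67, 1.67 and 1.16 CPM at 1 day, 0.139, 0.235 and 0.409 CPM at 14 days and 0.167, 0.135 and 0.128 CPM in sham mice. These values rest on 142 counts at 1 day and 10 counts in the sham mice, so that the ratio of levels was 10.7 (95% interval from counting error 5.66 to 22.8). Kcnn4 passed the filter on low counts through its 1-day counts (74, 42 and 26 in mice 4, 5 and 6), the group in which it is high. The fitted log2 fold change was 3.35 ± 0.39 (adjusted p = 7.75e-05), and mouse 6, which had the lowest neutrophil marker sum of the 1-day mice (47.7 CPM against 111 and 130 CPM), was also lowest for Kcnn4. Monocyte and macrophage markers, of which 6 of 8 rose, summed to 223 to 252 CPM in the 1-day mice against 104 to 116 CPM in the sham mice. Red blood cell markers, of which 5 of 5 fell, summed to 51.7 to 73.4 CPM in the 1-day mice against 93.4 to 154 CPM in the sham mice. Of the T cell and B cell markers, 1 of 6 and 1 of 4 could be tested, and neither was called. The part of these cell types in the rise of Kcnn4 was not tested. Of the small-conductance subunits Kcnn1 and Kcnn2 fell. Kcnn1 (chr8:70842049-70863258) had 2.33, 2.26 and 3.27 CPM at 1 day, 4.16, 2.81 and 2.698 CPM at 14 days and 5.90, 5.49 and 5.56 CPM in sham mice (log2 fold change -1.12 ± 0.19, adjusted p = 0.000675). Kcnn2 had a log2 fold change of -1.12 ± 0.23 (adjusted p = 0.00182), and Kcnn3 was not called (-0.78 ± 0.43, adjusted p = 0.143). The sodium-activated subunit Kcnt2 fell by 0.55 (SE 0.18, adjusted p = 0.0211); under scaling by total count alone the value was -0.08 (adjusted p = 0.783).

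**Figure D2:**
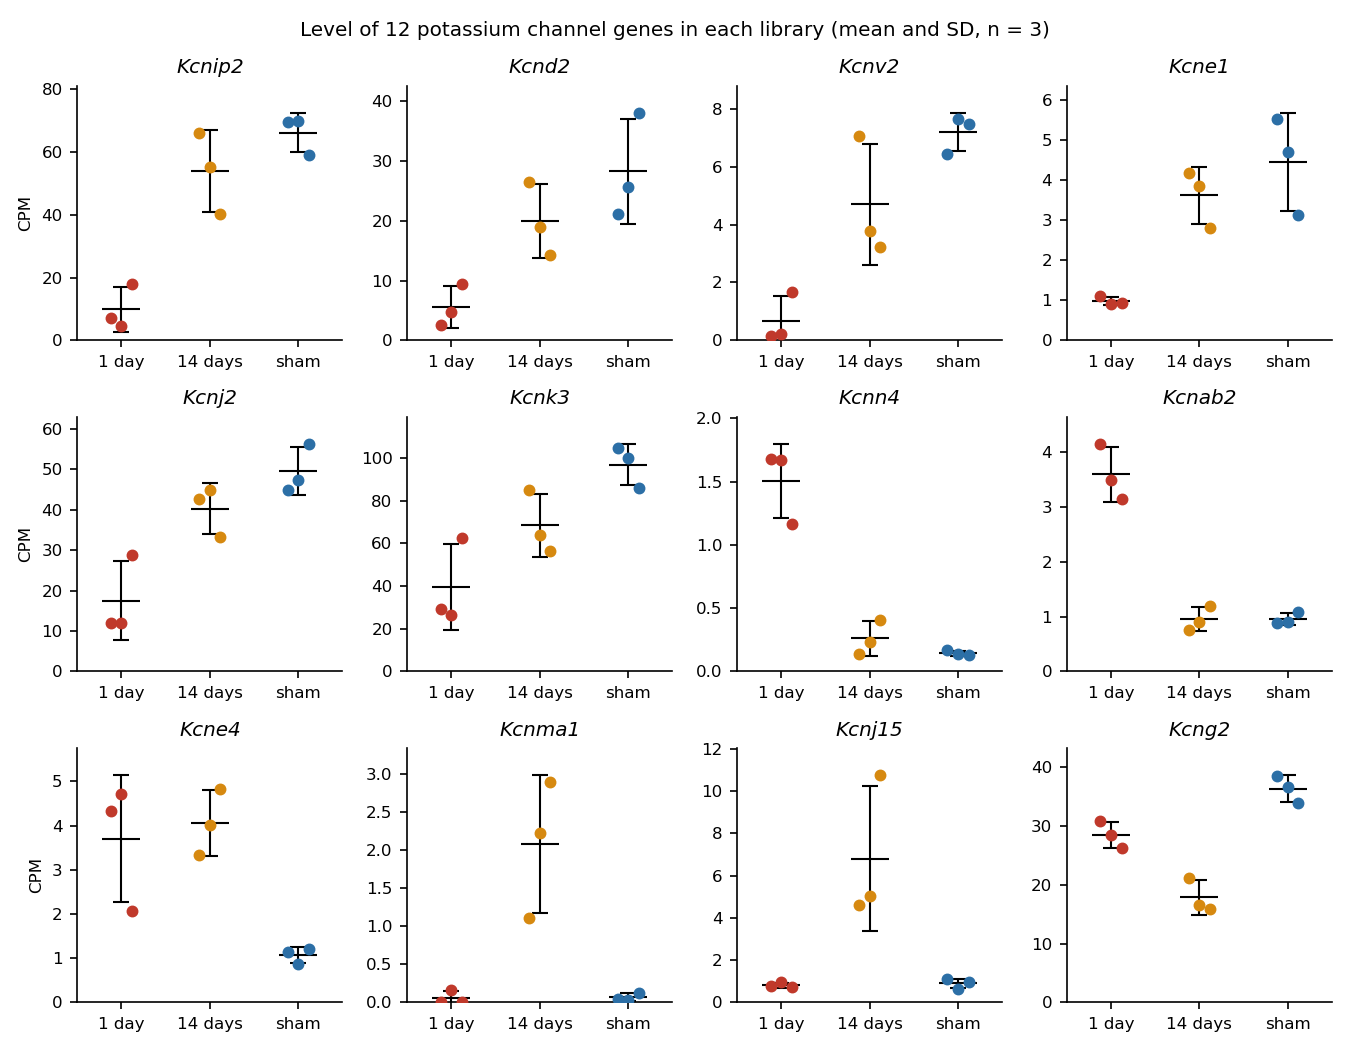
Level in CPM (vertical axes, each starting at 0) of 12 potassium channel genes in every library; each point is 1 library, the bar is the mean and the whisker the SD (n = 3), with 1 day on the left, 14 days in the middle and sham on the right. Kcnip2, Kcnd2, Kcnv2 and Kcne1 are low at 1 day, Kcnn4 and Kcnab2 are high at 1 day, Kcnma1 and Kcnj15 are high at 14 days, and Kcne4 is high at both times.

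Mouse 6 lay nearest the sham mean of the 1-day mice in 23 of the 29 channel genes called at 1 day, 17 of them lower and 6 higher than sham. Over the 22 lower genes mice 4 and 5 both stood at a median log2 distance of -1.31 from sham, and mouse 6 at -0.73. Mouse 6 also had the highest sum of cardiomyocyte markers at 1 day (54597 CPM, against 38062 and 35828 CPM in mice 4 and 5). Leaving mouse 6 out gave 22 lower and 8 higher genes, the eighth being Kcnj14, which then passed the filter on low counts, against 22 and 7 with mouse 6. Of the 29 calls 22 stood whichever library was left out. The calls that ended were those of Kcna2 (also with limma-voom, at 0.0523; without sham mouse 2 or 3, or mouse 5 or 6; adjusted p from 0.0567 to 0.104), Kcnab1 (without any sham mouse, or mouse 4 or 6; 0.0643 to 0.0702), Kcnd1 (without sham mouse 2 or mouse 4 or 5; 0.0555 to 0.0708), Kcng2 (without sham mouse 1 or 2 or mouse 5; 0.0586 to 0.0805), Kcnj5 (without any sham mouse, or mouse 4 or 5; 0.0513 to 0.0875), Kcnk2 (without sham mouse 1 or 3, mouse 4 or 5, or library A; 0.0552 to 0.138) and Kcnt2 (without sham mouse 2 or mouse 4; 0.0607 to 0.0853). Kcna3 and Kcnc2, which were not called, passed without library A (Kcna3, log2 fold change 1.52, adjusted p = 0.00864) and without library C (Kcnc2, -1.29, adjusted p = 0.0380).

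**Figure D3:**
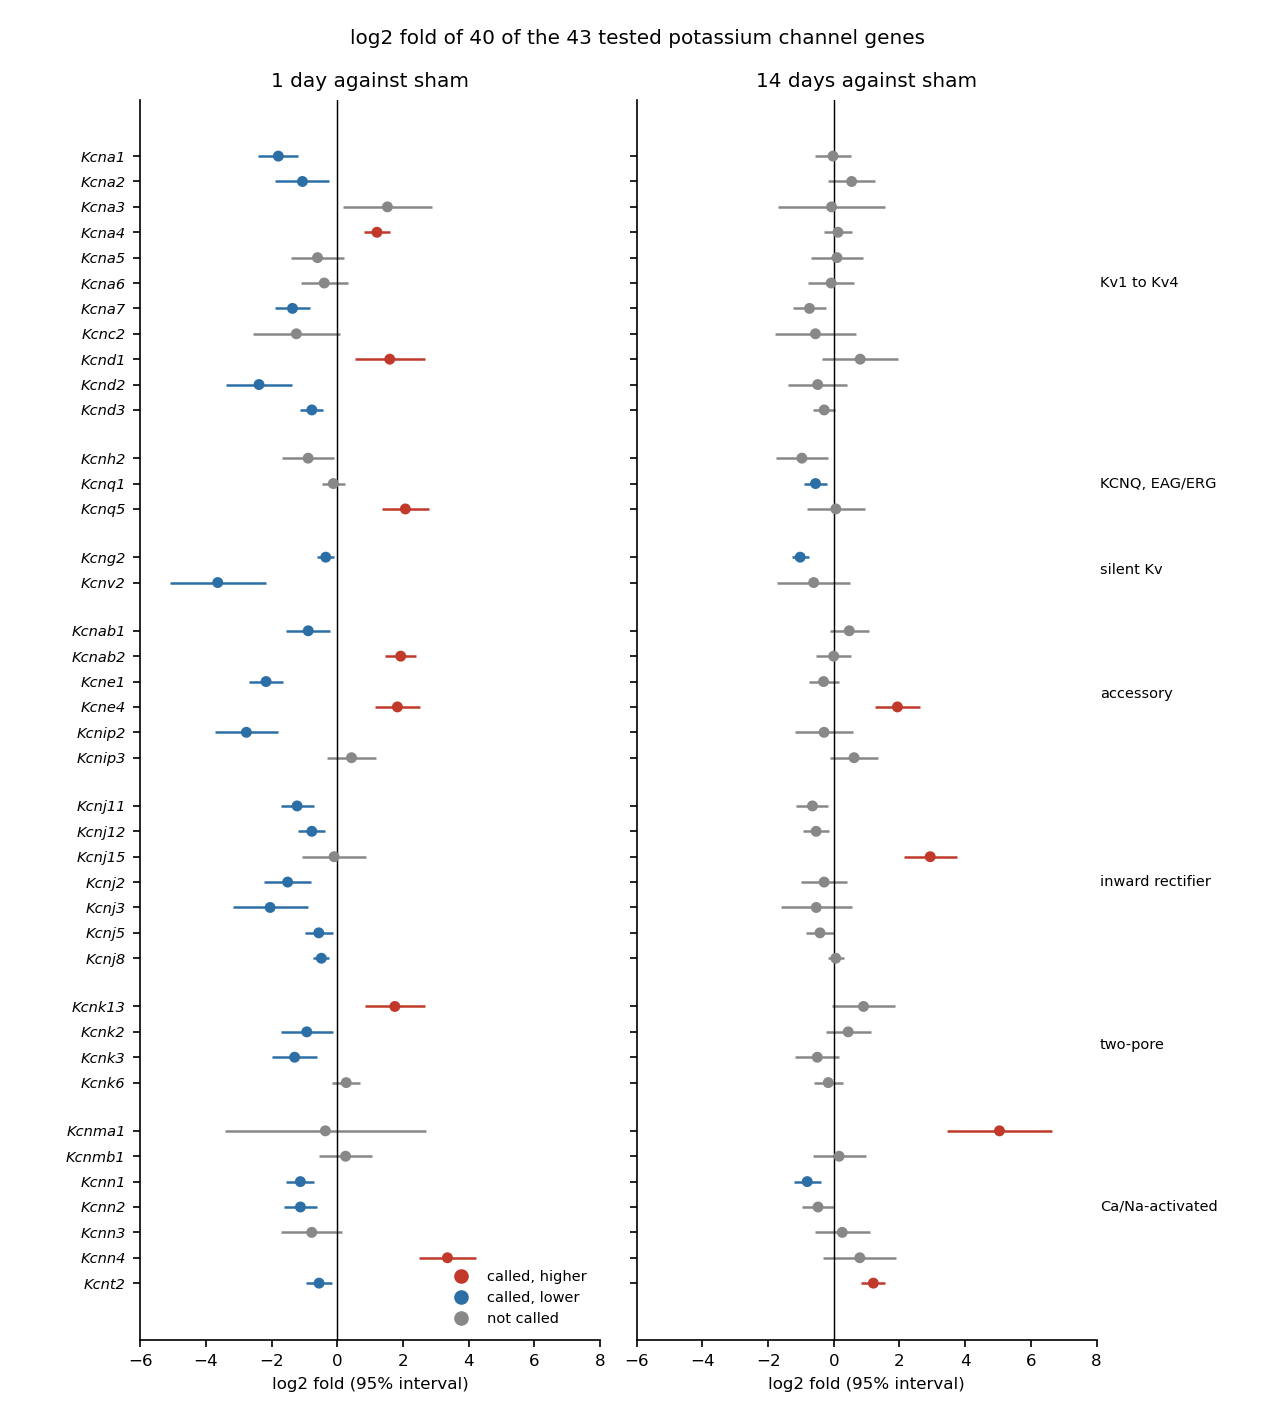
Log2 fold change (horizontal axis) with its 95% interval of 40 of the 43 tested potassium channel genes, at 1 day against sham on the left and at 14 days against sham on the right, grouped by role; red genes were higher, blue genes lower and grey genes not called. Of those drawn, 21 are blue and 7 red at 1 day, and 3 are blue and 4 red at 14 days.

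At 14 days after I/R, 4 of the 43 tested genes were higher than in sham tissue and 3 were lower. The genes that rose were Kcnma1, Kcnj15, Kcne4 and Kcnt2, and those that fell were Kcng2, Kcnn1 and Kcnq1. The calls made up 16.3% of the tested channel genes, against 14.4% of all tested genes, and so were near the background. The shares that were higher and lower were 9.3% and 6.98% of channel genes, against 8.75% and 5.64% of all genes. The median log2 fold change was -0.17, against 0.01 over all genes. The same 3 sham mice serve as controls in both comparisons.

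Kcnma1 (chr14:23289431-24014491), the pore of the large-conductance calcium-activated channel of smooth muscle and other cells, had 0, 0.159 and 0 CPM at 1 day, 1.11, 2.23 and 2.90 CPM at 14 days and 0.0419, 0.0337 and 0.128 CPM in sham mice. Every 14-day library stood above every other library. Kcnma1 passed the filter on low counts through these libraries (32, 76 and 71 counts in A, B and C), the group in which it is high. The counts were 179 at 14 days and 4 in the sham mice, so that the ratio of levels was 35.4 (95% interval from counting error 13.6 to 131), and the fitted log2 fold change was 5.04 ± 0.73 (adjusted p = 0.00336). Its accessory subunit Kcnmb1 was not called (0.16 ± 0.37, adjusted p = 0.804). Kcnj15 (chr16:95257558-95300260), an inward rectifier best known from kidney and other epithelia, had 0.792, 0.953 and 0.717 CPM at 1 day, 4.61, 5.04 and 10.8 CPM at 14 days and 1.09, 0.640 and 0.958 CPM in sham mice. Library C had more than A and B combined, the 14-day libraries did not overlap the others, and the log2 fold change was 2.94 ± 0.36 (adjusted p = 0.00277). Kcnt2 (chr1:140246158-140612067), a sodium-activated subunit, had 4.07, 5.20 and 5.02 CPM at 1 day, 11.98, 16.2 and 19.8 CPM at 14 days and 6.87, 7.08 and 6.84 CPM in sham mice, so it was below sham at 1 day and above it at 14 days (log2 fold change 1.205 ± 0.17, adjusted p = 0.00319). Kcne4, whose values are given above, had a log2 fold change of 1.94 ± 0.31 at 14 days (adjusted p = 0.00465).

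Library C was highest and library A lowest for Kcnma1, Kcnj15, Kcnt2 and Kcne4. The summed fibroblast markers ran the same way, with 2010 CPM in library A, 3252 CPM in library B and 4972 CPM in library C. Monocyte and macrophage markers did too, with 164, 260 and 318 CPM in libraries A, B and C, and 5 of their 8 genes rose. Smooth muscle and pericyte markers, of which 2 rose and 2 fell, summed to 932, 866 and 751 CPM in these libraries, against 833 to 867 CPM in the sham mice. The part of these cell types in the rises was not tested. All 4 rises were called whichever library was left out.

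Of the genes that fell at 14 days, Kcng2 had a log2 fold change of -1.02 ± 0.12 (adjusted p = 0.00151) and all 14-day libraries lay below every sham and every 1-day library. Kcnn1 had a log2 fold change of -0.81 ± 0.19 (adjusted p = 0.0179), and its call ended without any 1 of the sham mice, library B or library C (adjusted p from 0.0525 to 0.0876). Kcnq1 fell by 0.56 (SE 0.16, adjusted p = 0.0449), and its call ended without any 1 of the sham mice, mouse 4, library B or library C (0.0559 to 0.178). Both calls also ended under scaling by total count alone (Kcnn1 -0.73, adjusted p = 0.0668; Kcnq1 -0.48, adjusted p = 0.167). Several genes stood just short of the threshold, with all 14-day libraries below all sham libraries: Kcna7 (-0.74 ± 0.23, adjusted p = 0.0504), Kcnj11 (-0.65 ± 0.22, 0.0748) and Kcnh2 (-0.97 ± 0.35, 0.0947). Kcnj12 overlapped sham in no more than its highest library (-0.54 ± 0.18, adjusted p = 0.0739). Without mouse 6 at 1 day, which is part of the same fit, 9 channel genes were lower, these 4 and Kcnk3 among them. Leaving it out changes the shared estimate of the spread, the filter and the scaling, and which of these moved the calls was not tested. Without library A 7 were lower, and without any 1 of the sham mice, library B or library C 1 was lower. Without mouse 5 it was 4 and without mouse 4 it was 2.

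The genes of the transient outward and inward rectifier currents were not called at 14 days, and neither were the leak channel gene Kcnk3 and the silent subunit gene Kcnv2. The log2 fold change at 14 days was -0.30 ± 0.39 for Kcnip2 (95% interval -1.18 to 0.58), -0.49 ± 0.40 for Kcnd2 (-1.40 to 0.42), -0.29 ± 0.31 for Kcnj2 (-0.99 to 0.40), -0.50 ± 0.30 for Kcnk3 (-1.17 to 0.17) and -0.61 ± 0.49 for Kcnv2 (-1.73 to 0.51). These intervals hold 0, and for Kcnip2, Kcnd2, Kcnk3 and Kcnv2 they also hold a log2 fold change of -1, so a lower level at 14 days was not called but not shown to be absent. For Kcnk3 and Kcnj2 all 14-day libraries lay below all sham libraries, but by narrow margins. Kcnk3 had 84.9 CPM in library A against 86.1 CPM in sham mouse 3, and Kcnj2 44.9 CPM in library B against 45.0 CPM in sham mouse 1. Kcnip2, Kcnd2 and Kcnv2 overlapped sham. Kcnk3 was called lower with only the 2 groups compared (-0.51, adjusted p = 0.0351) and without mouse 6 (-0.50, adjusted p = 0.0241). Library C was the lowest 14-day library for all 5 genes and had the lowest sum of cardiomyocyte markers at 14 days, 53284 CPM against 69094 CPM in library A and 58996 CPM in library B.

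**Figure D4:**
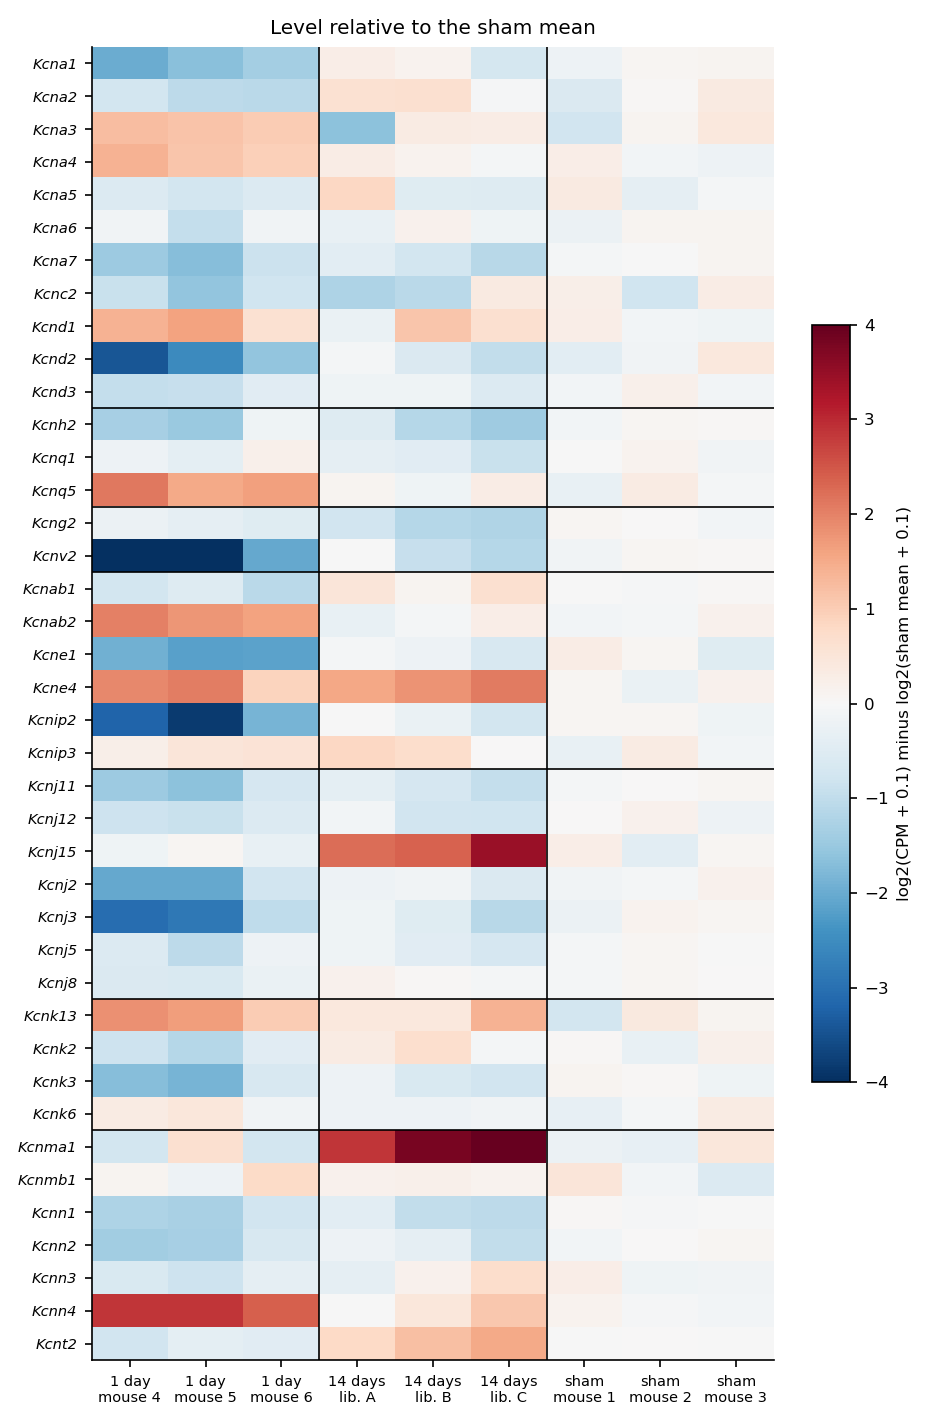
Level of 40 of the 43 tested potassium channel genes (rows, grouped by role) in each library (columns, 1 day, 14 days and sham from left to right), as log2 of CPM plus 0.1 minus log2 of the sham mean plus 0.1; red is above and blue below the sham mean. Most rows are blue at 1 day, less so in mouse 6, and the rows of Kcnma1 and Kcnj15 are darkest red at 14 days.

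Set directly against 1 day, 18 of the 43 genes were higher at 14 days and 7 were lower, 58.1% of the tested channel genes against 51.9% of all tested genes. The higher share was 41.9% of channel genes against 25.1% of all genes, and the lower share 16.3% against 26.8%. Under scaling by total count alone 12 were higher and 10 lower, with the median of all genes at -0.38. The calls that ended then included those of Kcnj3 (1.17, adjusted p = 0.0516), Kcnn3 (0.65, 0.258), Kcnn2 (0.25, 0.376), Kcnj8 (0.16, 0.478), Kcna7 (0.22, 0.527) and Kcnd3 (0.10, 0.706). Among the 18 were Kcnma1 (log2 fold change 5.41 ± 0.71, adjusted p = 0.000183), Kcnj15 (3.03 ± 0.35, 9.93e-05), Kcnv2 (3.03 ± 0.65, 0.00446) and Kcnip2 (2.47 ± 0.42, 0.00137). The others were Kcnd2, Kcne1, Kcna1, Kcnt2, Kcna2, Kcnj3, Kcnk2, Kcnab1, Kcnj2 and Kcnn3, with log2 fold changes between 1.03 and 1.89, and Kcnn2, Kcna7, Kcnj8 and Kcnd3, between 0.48 and 0.64. The 7 lower genes were Kcnn4 (-2.56 ± 0.33, adjusted p = 0.000142), Kcnq5 (-2.01 ± 0.31, 0.000391), Kcnab2 (-1.93 ± 0.21, 4.57e-05), Kcna4 (-1.08 ± 0.18, 0.000588), Kcna3 (-1.60 ± 0.58), Kcng2 (-0.67 ± 0.12) and Kcnq1 (-0.44 ± 0.16). This comparison uses the same 1-day mice as the comparison of 1 day with sham.

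Of these 25 calls, 17 stood whichever library was left out. The call of Kcna7 ended under every omission except those of mouse 6 and library C (adjusted p up to 0.174), that of Kcnn3 under all except mouse 6 and library A (up to 0.173), and that of Kcnq1 under all except mouse 5 and library A (up to 0.181). The call of Kcna3 ended without sham mouse 2 or 3, mouse 4 or 5, or library A (up to 0.118), and that of Kcnn2 without sham mouse 2, mouse 4 or 5, or library A or B (up to 0.143). Those of Kcnd3 and Kcnj3 ended without mouse 4, mouse 5, library A or library B (up to 0.108 and 0.143), and that of Kcnj2 without library A (0.0518). Kcnk3 was not called between the times (0.80 ± 0.30, adjusted p = 0.0504) but was without mouse 6 (1.29, adjusted p = 4.14e-05). Kcnj11 and Kcnk13 were called without mouse 6 or library C (adjusted p from 0.000195 to 0.0390), and Kcnd1, Kcnk6 and Kcnn1 without mouse 6 (adjusted p = 0.0435, 0.0146 and 0.0452).

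Genes that work with channel subunits but carry no Kcn symbol were read from a list of 16, of which 11 were tested. At 1 day 4 rose and 5 fell, where 29.4% of all tested genes were higher and 24.8% lower. The risers were Flna, an actin cross-linker that binds channels (log2 fold change 1.59 ± 0.18), Cttn, an actin-binding partner of Kv channels (1.93 ± 0.20) and, among others, Cav3, the muscle caveolin (1.03 ± 0.16). Besides Abcc9, the scaffold gene Dlg1 (-0.32 ± 0.09) was among those that fell. At 14 days against sham these 5 genes were not called, with log2 fold changes between -0.25 (Abcc9) and 0.49 (Flna). Of 7 transcription factors known to act on Kcn genes, 4 fell at 1 day, where 24.8% of all tested genes were lower: Irx4 (-1.07 ± 0.21), Etv1 (-1.01 ± 0.31), Tbx5 (-0.76 ± 0.22) and Irx3 (-0.65 ± 0.17). At 14 days Irx4 (-0.85 ± 0.21) and Irx3 (-0.82 ± 0.17) were lower than in sham tissue, as were 5.64% of all tested genes.

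Some channel genes lie next to each other. Kcna1, Kcna6 and Kcna5 lie within 200 kb on chromosome 6; at 1 day Kcna1 fell (-1.80 ± 0.28), while Kcna6 (-0.40 ± 0.33, adjusted p = 0.321) and Kcna5 were not called. Kcna2 and Kcna3 lie 63.1 kb apart on chromosome 3, with log2 fold changes at 1 day of -1.06 ± 0.38 and 1.53 ± 0.61, the second of them not called (adjusted p = 0.0532). Whether neighbours differed from each other was not tested. Kcna6 shares 39.6% of its exonic bases with the antisense gene Gm26673, which had 0 counts in every library.

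The other 51 channel genes did not pass the filter on low counts. Of these 8 had 0 counts in every library, which allows a level of up to 0.0679 CPM in the deepest library and 0.192 CPM in the shallowest, counting 3 counts as the limit. The highest was Kcnj14, an inward rectifier, at 0.715 CPM in 1 library, and no other untested gene passed 0.491 CPM. Kcnj14 had 22, 18 and 8 counts in mice 4, 5 and 6 at 1 day, 7, 4 and 5 counts in libraries A, B and C at 14 days, and 1, 3 and 0 counts in sham mice 1, 2 and 3. It passed the filter in 8 of the 9 fits that left out 1 library, all except that without mouse 4. It was higher at 1 day in each of the 8 (adjusted p from 0.000518 to 0.00849). Kcnj14 entered these fits through its counts at 1 day, the group in which it is high, so these calls give no independent support. By total count over the 9 libraries the genes just outside the filter were Kcnk5 (70 counts), Kcnj14 (68) and Kcnc1 (45), and those just inside were Kcnc2 (85), Kcna3 (86) and Kcnn3 (98).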

How the data were processed

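The 9 libraries are of left ventricle, 6 of them after I/R and 3 from sham-operated mice. TRIzol extraction and stranded libraries of total RNA depleted of ribosomal RNA are named in the labels' protocols. The submitters' processing notes name STAR 2.7.1a and build GRCm38 (mm10). How reads were counted (program, annotation, strand, multiple matches) is not given in the sources used here. The deposited values are raw counts per gene, which the authors did not normalize. Genes that share exonic bases with an antisense gene are therefore uncertain: among the tested channel genes 10% or more was shared by Kcna6, Kcnj3 and Kcnk2, among others. Counts cover all 43 tested genes, but 3 of them are not reported here by name and are left out of the figures that name genes.

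The 94 genes were found by Ensembl ID and symbol in the GENCODE annotation, which matched 36429 of the 38293 table genes. The members and all lists were chosen with earlier results of these data known. Counts were tested in edgeR 4.0.16 (R 4.3.3) with trimmed-mean scaling, filterByExpr, robust quasi-likelihood fits and all 9 libraries in 1 fit. The test was first run on simulated counts with the spread of the sham mice and few changed genes. That setting differs from these data, so the run does not speak for this fit. SE is the absolute log2 fold change over the square root of F. CPM divides counts by the effective library size, ribosomal RNA included. P-values were adjusted over all 14124 tested genes by Benjamini-Hochberg.

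Total counts were 20215781 to 36816818 per library, and 7.22M to 15.97M without ribosomal RNA genes. Intervals of count ratios cover counting error only. Replicates differed by more than sampling noise (chi-square per degree of freedom 7.50 to 99.5), so each library counted once; p-values measure the spread between these mice. Values were given for every library for genes fixed by a rule: up to 6 called genes per direction against sham by size of change, up to 4 per direction between the times, at 1 CPM or more, and the 2 highest per role list by CPM per kb. DESeq2 1.42.0, limma 3.58.1 (voom), other scalings and filters, a test against a 2-fold change, fits of only 2 groups and the omission of each library were alternatives.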

Additional observations from a re-analysis of the deposited data

Results flagged for a closer look

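For 25 channel genes the effect against sham differed between the 2 times, tested directly as 14 days against 1 day with edgeR (adjusted p under 0.05); since both effects use the same sham mice, this is the same value as the log2 fold change between the times. The value was positive, with the level at 14 days above that at 1 day, for Kcnma1 (5.41), Kcnj15 (3.03), Kcnv2 (3.03), Kcnip2 (2.47), Kcnd2 (1.89), Kcne1 (1.86), Kcna1 (1.77), Kcnt2 (1.76), Kcna2 (1.61), Kcnj3 (1.51), Kcnk2 (1.37), Kcnab1 (1.36), Kcnj2 (1.22), Kcnn3 (1.03), Kcnn2 (0.64), Kcna7 (0.62), Kcnj8 (0.54) and Kcnd3 (0.48). The value was negative, with the level at 14 days below that at 1 day, for Kcnn4 (-2.56), Kcnq5 (-2.01), Kcnab2 (-1.93), Kcna3 (-1.60), Kcna4 (-1.08), Kcng2 (-0.67) and Kcnq1 (-0.44). Under scaling by total count alone Kcnj3, Kcnn3, Kcnn2, Kcna7, Kcnj8 and Kcnd3 were no longer called. Kcnt2 was below sham at 1 day (-0.55) and above it at 14 days (1.205); the 1-day call ended under that scaling (-0.08, adjusted p = 0.783) and without sham mouse 2 or mouse 4. Both calls of Kcng2 were below sham (-0.35 at 1 day and -1.02 at 14 days), the first of them turning to 0.14 (adjusted p = 0.551) under that scaling.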

How the results depend on the processing

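Of the 29 channel genes called at 1 day 18 were called under every alternative except the test against a 2-fold change, of 7 at 14 days 5, and of 25 between the times 16. Against a 2-fold change, 4 genes were higher and 5 lower at 1 day, 2 higher and 0 lower at 14 days, and 6 higher and 3 lower at 14 days against 1 day; without that stricter threshold the counts were 7 and 22, 4 and 3, and 18 and 7. Scaling by total count alone left 12 lower genes at 1 day, moved the median of all genes to 0.53 and turned Kcng2 to 0.14 (adjusted p = 0.551). The number lower at 14 days was 9 with only the 2 groups compared, 7 with DESeq2 and 6 with limma-voom, in which Kcna7, Kcnh2 and Kcnj11 were added, and 1 to 9 over the omissions of 1 library. The cause of these changes was not tested, apart from the stricter threshold. At 1 day, omissions of 1 library gave 6 to 9 higher and 17 to 23 lower genes, counted over all channel genes that passed the filter in that fit. Kcnj14, untested with all libraries, was among the higher genes in 8 of the 9, which it entered through its counts at 1 day. Kcnh2 was called at 1 day by DESeq2 (adjusted p = 0.0141) and limma-voom. The other alternatives moved no count by over 1.5 times. No paired analysis was possible because the groups share no replicate numbers. Depth limits genes under about 1 CPM: 51 of 94 genes could not be tested, and Kcnma1 and Kcnn4 rest on 4 and 10 counts in the sham mice. Kcnma1, at 14 days, and Kcnn4, Kcnq5 and Kcna3, at 1 day, passed the filter through the group in which they are high. Kcnd1 reached the filter's limit in libraries B and C as well, which were too few without its 1-day counts.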

Other observations

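Non-coding genes with a Kcn symbol were outside the 94 genes and were low. Kcnd3os, an antisense gene of Kcnd3, had 0.119 to 0.179 CPM in the 1-day mice, 0.117 to 0.208 CPM in the 14-day mice and 0.0837 to 0.256 CPM in the sham mice, so the groups overlapped. Kcnab3os had 6 counts over the 9 libraries. Kcnmb4os1 and Kcnmb4os2 had 0 counts in every library, and Kcnq1ot1 is not analysed here.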
